A study of Mus musculus with 60 samples.

Results

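Nol4l, Fam53b, Bcor, Cbfa2t3, Banp, Zhx2, Gse1 and Ahdc1 are 8 genes for nuclear proteins, most of them known to repress or otherwise regulate transcription. They were selected on measured values, because they fell with fluoxetine in these libraries, and they are 8 of the 18088 genes in the deposited table. No numerical threshold was set for that choice. The fluoxetine values below are therefore a description and carry no test. The response to lithium, to genotype and to sex was not a stated criterion. Earlier results of these data were known, however, when the genes were chosen. All 8 passed the filter on low values, which required at least 10 in at least 5 libraries.

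The libraries are RNA-seq of prefrontal cortex taken from C57BL/6J mice at postnatal day 25. Some mice had no mutant allele (wild type, WT), and the others carried 1 C456Y allele of Grin2b (Grin2b+/C456Y, called Het here). Grin2b codes for a subunit of NMDA receptors, the glutamate-gated channels needed for many forms of synaptic plasticity. Pups of both sexes had received vehicle, fluoxetine or lithium through maternal milk from postnatal day 3 to 24. Each of the 12 combinations of genotype, treatment and sex had 5 libraries, so each genotype and treatment had 10 and the whole study 60. The drug came by way of the mother, so pups of 1 litter shared its exposure. Replicates are numbered in the labels without being tied to an animal or a litter, and p-values measure only the spread between these samples, which may be technical.

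Transcriptional corepressors do not usually bind DNA themselves. They are brought to genes by DNA-binding factors and in turn bring enzymes that remove acetyl or methyl groups from histones or add ubiquitin to them. In cortical neurons such complexes are known to hold back genes of other lineages and to limit activity-dependent genes. By known role, Bcor, Cbfa2t3 and Gse1 are corepressor subunits: the BCL6 corepressor and subunit of a variant Polycomb complex, a member of the ETO family that links DNA-binding factors to histone deacetylases, and a partner of the histone demethylase KDM1A. Zhx2 is a zinc-finger and homeobox repressor, and Ahdc1 is an AT-hook DNA-binding protein. Banp goes against the name corepressor, since it binds an unmethylated CGCG element and is known to activate CpG island promoters. Fam53b is known for helping beta-catenin enter the nucleus, and Nol4l is a nucleolar protein 4 relative whose function is little described.

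The promoter windows of RefSeq (GRCm38.p6, 250 bases before to 50 after a start) are shown for 3 members, to let the genes with the firmest and the weakest response to lithium be compared in sequence. Nol4l had the smallest p under lithium in both genotypes, Cbfa2t3 the largest fold, and Bcor the smallest fold. Capitals mark the GC box searched for, GGGCGG or CCGCCC on the other strand, the core bound by SP-family factors. All windows are read 5′ to 3′ on the minus strand, the strand of these genes. They lie at chr2:153529922-153530221 (Nol4l), chr8:122699060-122699359 (Cbfa2t3, upstream start), chr8:122678126-122678425 (Cbfa2t3, downstream start) and chrX:12160297-12160596 (Bcor).
Nol4l: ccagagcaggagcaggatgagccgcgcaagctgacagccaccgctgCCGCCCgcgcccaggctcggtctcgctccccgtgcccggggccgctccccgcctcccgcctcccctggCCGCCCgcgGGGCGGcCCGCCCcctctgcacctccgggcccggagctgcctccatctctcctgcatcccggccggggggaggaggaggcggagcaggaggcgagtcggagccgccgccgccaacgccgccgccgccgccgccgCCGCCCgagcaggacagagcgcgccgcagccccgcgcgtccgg
Cbfa2t3, upstream start: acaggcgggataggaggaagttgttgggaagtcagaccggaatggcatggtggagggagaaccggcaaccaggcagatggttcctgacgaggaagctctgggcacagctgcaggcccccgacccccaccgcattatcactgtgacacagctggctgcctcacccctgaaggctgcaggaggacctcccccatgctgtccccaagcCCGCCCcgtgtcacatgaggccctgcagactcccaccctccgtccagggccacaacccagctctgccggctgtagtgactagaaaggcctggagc
Cbfa2t3, downstream start: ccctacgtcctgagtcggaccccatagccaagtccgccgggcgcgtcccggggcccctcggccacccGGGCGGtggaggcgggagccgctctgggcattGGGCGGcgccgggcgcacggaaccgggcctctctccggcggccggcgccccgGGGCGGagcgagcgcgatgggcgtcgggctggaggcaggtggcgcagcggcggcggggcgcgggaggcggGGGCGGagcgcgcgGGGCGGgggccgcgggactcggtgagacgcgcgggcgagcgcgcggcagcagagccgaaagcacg
Bcor: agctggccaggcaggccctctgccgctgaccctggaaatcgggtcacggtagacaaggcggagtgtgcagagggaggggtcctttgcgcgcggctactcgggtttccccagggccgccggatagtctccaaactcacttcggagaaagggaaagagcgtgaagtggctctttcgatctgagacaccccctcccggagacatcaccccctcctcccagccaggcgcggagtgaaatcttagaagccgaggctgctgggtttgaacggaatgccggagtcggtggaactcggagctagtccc

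The Nol4l window shown held 5 GC boxes and 44 CG dinucleotides, and the window of its other start, at chr2:153444430-153444729, held 3 and 34. The starts of Cbfa2t3 differed in composition, with 1 GC box and 10 CG upstream against 5 GC boxes and 53 CG downstream. Both Bcor windows, which overlap, had no GC box and 21 CG. In all, 6 members had 13 windows in the table, namely Nol4l, Fam53b, Bcor, Cbfa2t3, Gse1 and Ahdc1, while Banp and Zhx2 were not matched. A GC box was found in 10 of the 13 windows, compared with 58.1% of the 16135 windows of tested genes and 35.7% of all 32851. CG dinucleotides numbered 4 to 53 per member window, and 10 of 13 were above the median of 18 for tested genes. A match describes the letters only. The expression values do not say which start was used.

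The members lie on 6 chromosomes in GENCODE M21 (GRCm38), and 3 of them share a stretch of chromosome 8. These are Gse1 (ENSMUSG00000031822, chr8:120228456-120581390), Banp (ENSMUSG00000025316, chr8:121949750-122029258) and Cbfa2t3 (ENSMUSG00000006362, chr8:122625141-122699109). The others are Nol4l (ENSMUSG00000061411, chr2:153407462-153529971), Fam53b (ENSMUSG00000030956, chr7:132712082-132813886), Bcor (ENSMUSG00000040363, chrX:12036740-12160355), Zhx2 (ENSMUSG00000071757, chr15:57694665-57839832) and Ahdc1 (ENSMUSG00000037692, chr4:133011260-133078110). All are protein-coding. Per kilobase of the longest transcript, the level in WT vehicle ran from 381 normalised read counts for Gse1, 373 for Nol4l and 350 for Ahdc1, through 218 for Fam53b, 176 for Banp, 172 for Bcor and 162 for Cbfa2t3, to 114 for Zhx2. Behind the values stood 232 to 3483 reads per gene and library.

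The members had 1 property in common that was not a stated criterion of the choice. The GC content of the longest transcript was 51.5% (Banp) to 59.9% (Ahdc1), above the 49.4% median of the tested genes in all 8. Several libraries also deviated along GC content. The correlation across genes between a library's deviation and GC content reached −0.756 (WT lithium male replicate 5) and −0.509 (WT vehicle female replicate 2), and it was −0.468 to −0.154 in the Het fluoxetine libraries. The highest was 0.513, in Het lithium female replicate 4. A choice made on fluoxetine folds is not independent of such trends, and its part in the shared GC content was not tested. A GC-corrected value is therefore given wherever it changed the call of a member for lithium against vehicle. Library totals were 23901635 to 37769417 reads. A group of 10 libraries, made up of 9 of the 10 Het fluoxetine libraries and WT vehicle female replicate 2, was low in 16 pseudogenes. These pseudogenes were picked because they were called lower, with a large fold, in Het than in WT fluoxetine. That most of the group is Het fluoxetine therefore follows from the choice. A fit with a term for the 10 libraries is given beside the Het fluoxetine values. Within a genotype, treatment and sex, only WT vehicle female replicate 2 and Het fluoxetine male replicate 1 differ from the others in this. The term therefore rests on those libraries. Markers of excitatory cortical neurons were all present, with Slc17a7 at a mean of 52045 normalised read counts.

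Among WT mice, lithium lowered 6 of the 8 members: Nol4l, Cbfa2t3, Zhx2, Fam53b, Banp and Ahdc1. The test was limma on log2(value + 1) across 17810 genes, and calls were made at a Benjamini-Hochberg adjusted p below 0.05. Across all genes, 9.87% were called lower and 9.34% higher in this comparison. The remaining members, Bcor and Gse1, had folds below 0 without passing the test. The median log2 fold of the 8 members was −0.241, against 0.00389 over all tested genes. The comparison shares its vehicle libraries with the fluoxetine comparison that chose the genes, so a high vehicle value would lower both folds, and the lithium result is not independent of the choice.

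Nol4l showed the clearest response to lithium. Its normalised read count was 2269.8 to 2529 (median 2365) in the 10 WT vehicle libraries and 1690.3 to 2241 (median 2099.6) in the 10 WT lithium libraries. Every WT lithium library lay below every WT vehicle library, which happened for 0.124% of all tested genes. The means were 2384 ± 77.5 and 2032 ± 189 (SD, n = 10 each), and the log2 fold was −0.24 (SE 0.0338, limma adjusted p = 4.81e-06). It was called in all 20 fits that left out 1 WT vehicle or WT lithium library. In the Het mice the count was 2259 to 2509.7 (median 2340.5) with vehicle and 2007 to 2396 (median 2116) with lithium. There 8 of 10 lithium libraries were below the lowest vehicle library, and Nol4l was the 1 member called, at a log2 fold of −0.14 (SE 0.0338, limma adjusted p = 0.0287). That Het call did not hold without Het lithium female replicate 2 or 3, Het lithium male replicate 1 or 4, Het vehicle female replicate 2, or Het vehicle male replicate 1 or 2, with limma adjusted p up to 0.0764.

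Cbfa2t3 had the largest fold of the members under lithium. Its count was 1099 to 1419 (median 1224) in WT vehicle and 470 to 1155 (median 996) in WT lithium. The log2 fold was −0.47 (SE 0.0891, limma adjusted p = 0.000173), with 8 of 10 lithium libraries below the lowest vehicle library. The WT lithium females were spread widely, at 1155, 1042, 777, 643 and 470, whereas the males kept within 958 to 1104. In Het mice the count was 1191 to 1525 (median 1308) with vehicle and 884 to 1344 (median 1076) with lithium, and the log2 fold of −0.29 (SE 0.0891) did not pass the test (limma adjusted p = 0.0872). It passed without Het lithium female replicate 1, whose count of 1344 was the highest of its group (limma adjusted p = 0.0362), and without WT lithium female replicate 5, which enters only through the shared spread (limma adjusted p = 0.0283).

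Bcor and Gse1, the other corepressor subunits, had the smallest lithium folds of the members in WT. They were called in neither genotype in the main fit. Bcor was at 1141 to 1244 (median 1199) in WT vehicle and 969 to 1219.9 (median 1103) in WT lithium, a log2 fold of −0.12 (SE 0.0488, limma adjusted p = 0.0714). In Het mice Bcor was at 1009 to 1230.3 (median 1143) with vehicle and 978 to 1241 (median 1091) with lithium, a log2 fold of −0.03 (95% confidence interval −0.13 to 0.07). These Het groups overlapped almost fully. Gse1 was at 2205 to 3024 (median 2765) in WT vehicle and 1927 to 2713 (median 2486) in WT lithium, with a log2 fold of −0.16 (SE 0.0647, limma adjusted p = 0.0729). With Het genotype Gse1 was at 2389 to 2994 (median 2648) in vehicle and 1957 to 2781 (median 2492) in lithium, with a log2 fold of −0.15 (SE 0.0647, limma adjusted p = 0.273). Gse1 passed in WT without WT vehicle female replicate 2, which stood apart in pseudogenes and GC content (limma adjusted p = 0.0216), or without WT lithium female replicate 2 (limma adjusted p = 0.0437). Bcor passed without WT lithium male replicate 4 (limma adjusted p = 0.0491). Both passed in the fit with the term for the 10 libraries low in pseudogenes, at limma adjusted p = 0.0396 for Bcor and 0.0184 for Gse1, where the genes called lower over the whole table also rose in number, from 1757 to 2039.

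The DNA-binding members fell in WT with wide spread. Banp was at 892 to 1021 (median 965) in WT vehicle and 554 to 1025 (median 889) in WT lithium, a log2 fold of −0.23 (SE 0.0665, limma adjusted p = 0.0111). Its highest lithium library was above every vehicle library, while WT lithium female replicates 3, 4 and 5 lay at 650, 667 and 554. In Het mice Banp was at 883 to 1138 (median 993) with vehicle and 818 to 1084 (median 929) with lithium, and the log2 fold of −0.09 had a 95% confidence interval of −0.23 to 0.04. Zhx2 was at 405 to 571 (median 507) in WT vehicle and 285 to 476 (median 448) in WT lithium, a log2 fold of −0.31 (SE 0.0827, limma adjusted p = 0.00645). Low Zhx2 values came from WT lithium female replicates 3, 4 and 5 and from WT lithium male replicate 5, at 336, 379, 285 and 288. With the Het genotype Zhx2 was at 425 to 592 (median 478) in vehicle and 381 to 500 (median 449) in lithium, with a log2 fold of −0.12 (95% confidence interval −0.29 to 0.05). Ahdc1 was at 2003 to 2729 (median 2277) in WT vehicle and 1262 to 2356 (median 2063) in WT lithium, a log2 fold of −0.25 (SE 0.0779, limma adjusted p = 0.0202). This was the least firm of the WT calls. It was lost without WT lithium female replicate 4 (log2 fold −0.17, limma adjusted p = 0.0732), without WT lithium male replicate 5 (limma adjusted p = 0.0643) and after GC correction (log2 fold −0.14, limma adjusted p = 0.0757). In Het mice Ahdc1 was at 2113 to 2657 (median 2411) with vehicle and 1754 to 2432 (median 2132) with lithium, and its log2 fold of −0.18 did not pass (SE 0.0779, limma adjusted p = 0.283).

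Fam53b gave nearly equal folds in both genotypes. Its count was 1029.7 to 1278 (median 1215) in WT vehicle and 784 to 1201 (median 982) in WT lithium, a log2 fold of −0.25 (SE 0.0691, limma adjusted p = 0.0071). After GC correction the WT call was lost (log2 fold −0.19, limma adjusted p = 0.0675). In Het mice it was at 1110.5 to 1460.2 (median 1185) with vehicle and 788 to 1294 (median 1054) with lithium, a log2 fold of −0.24 (SE 0.0691, limma adjusted p = 0.0718). The Het fold passed without Het lithium female replicate 1, at a log2 fold of −0.29 (limma adjusted p = 0.0145).

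**Figure D1:**
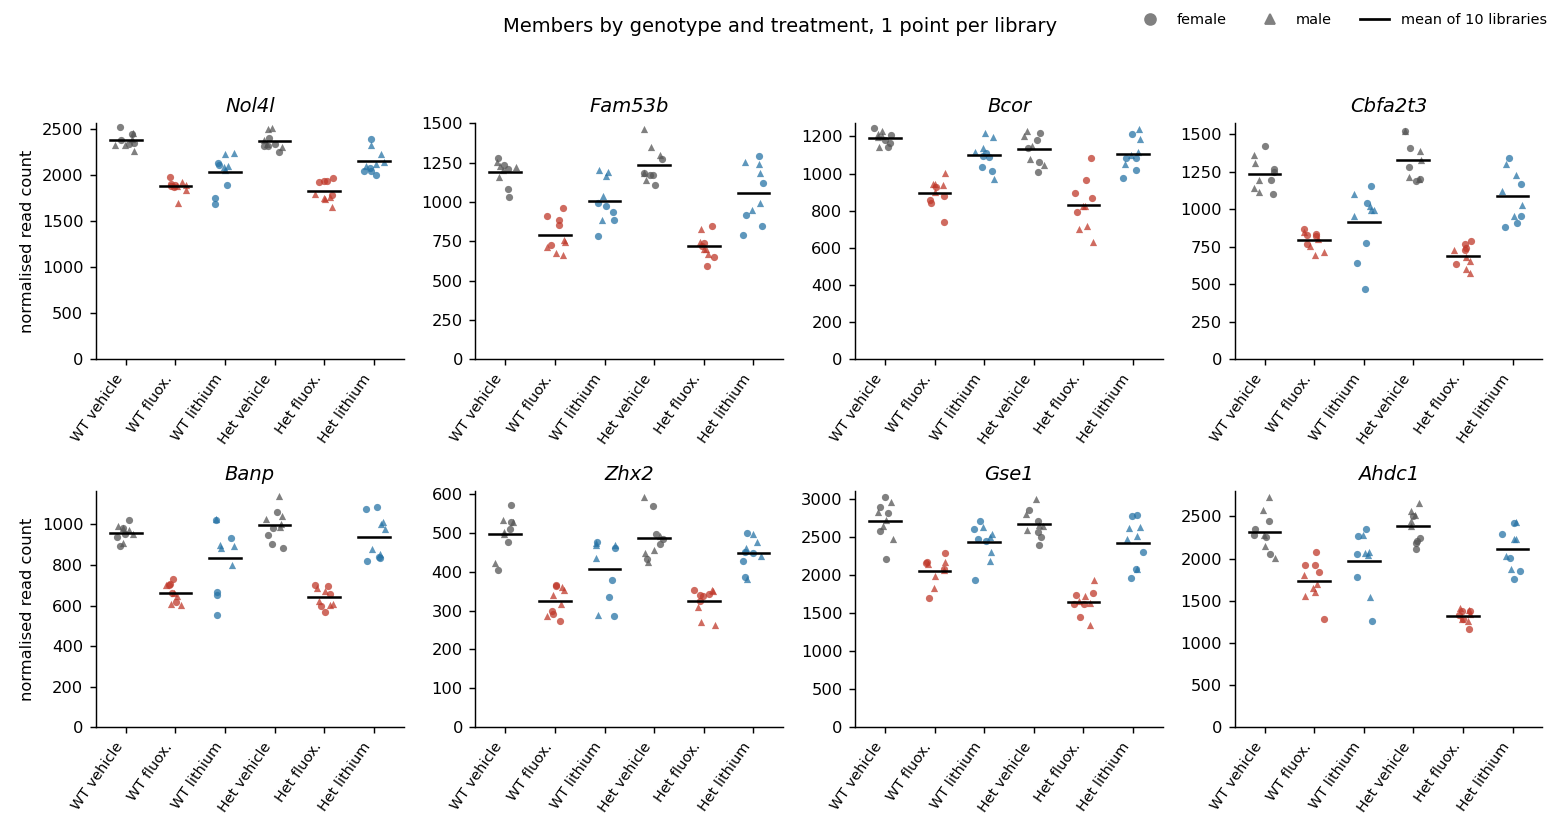
Normalised read count (vertical axis, from 0) of each member in the 6 genotype and treatment groups (horizontal axis). Each point is 1 library, circles are females, triangles are males and the bar is the mean of 10 libraries; Nol4l in WT lithium, at 1690.3 to 2241, lies wholly below WT vehicle, at 2269.8 to 2529.

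Among Het mice lithium thus called 1 of 8 members, against 0.5% of all genes called lower and 0.483% higher. No member rose in either genotype. The median log2 fold of the members was −0.145 in Het, against −0.00154 over all genes tested. No member differed in its lithium response between genotypes (0 of 8 called in limma's interaction test, 12 genes or 0.0674% of all called, 1 member at an unadjusted p below 0.05 and 0 called by edgeR). The interaction of Nol4l was 0.10 on the log2 scale (SE 0.0478, limma adjusted p = 0.451), and that of Zhx2 was 0.19 (95% confidence interval −0.05 to 0.42). A call in WT and none in Het is therefore not a shown difference between the genotypes.

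The WT lithium libraries did not respond evenly. Each library was compared with the vehicle mean of its genotype and sex, and the median over the 8 members was taken. In WT lithium these medians ran from −0.499 to −0.044 on the log2 scale, with a middle value of −0.138, and all 8 members were below the vehicle mean in 6 of 10 libraries. The lowest were female replicates 4 and 5, at −0.499 and −0.434, followed by male replicate 5 at −0.312 and female replicate 3 at −0.301. The 6 other WT lithium libraries lay between −0.168 and −0.044. In Het lithium the medians ran from −0.363 (male replicate 4) to 0.07 (female replicate 1), again with all 8 members lower in 6 of 10 libraries. The WT libraries that were lowest had unlike GC trends, with correlations of 0.122 in female replicate 3, −0.296 in female replicate 4, 0.312 in female replicate 5 and −0.756 in male replicate 5.

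**Figure D2:**
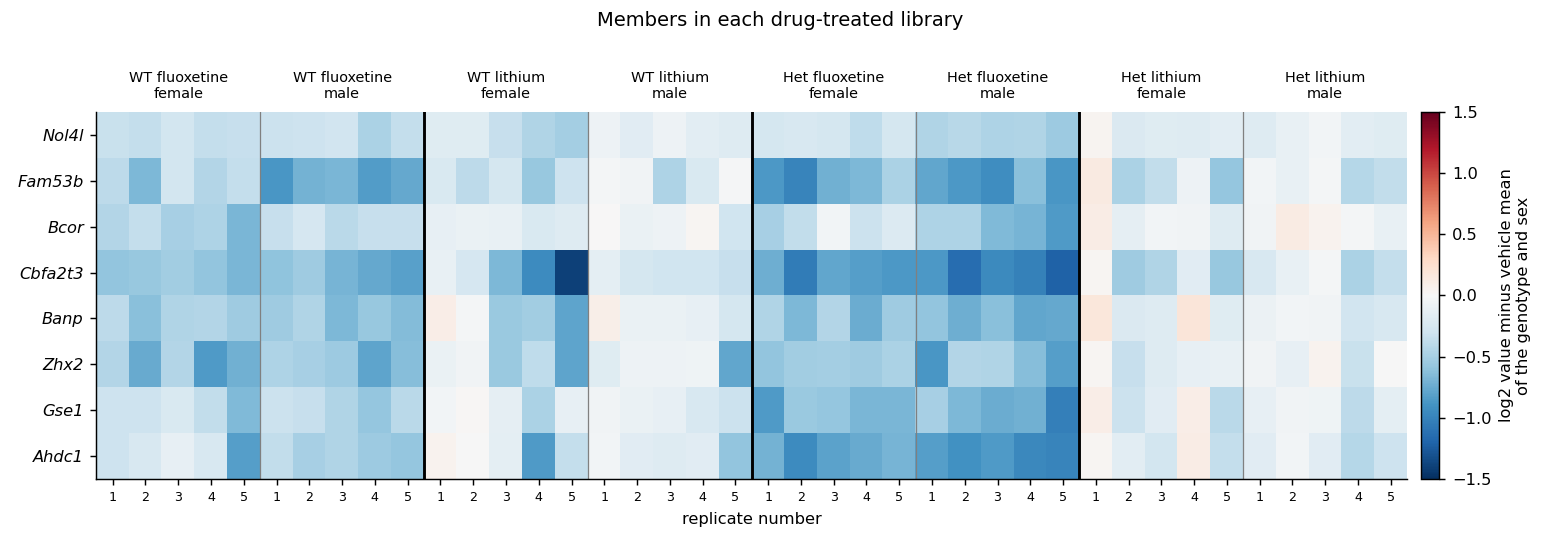
Log2 value of each member (rows) in each fluoxetine or lithium library (columns, by replicate number) minus the vehicle mean of the same genotype and sex. Blue is lower and red higher; fluoxetine libraries are blue throughout, and among WT lithium libraries the medians over members are lowest in female replicates 3 to 5 and male replicate 5, though not for each member (Fam53b in male replicate 5 is at −0.014).

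Over all tested genes, the largest residuals belonged to 3 libraries, Het vehicle male replicate 5 and, in WT lithium, female replicate 5 and male replicate 5. Without them lithium called 3 of 8 members in WT (Nol4l, Cbfa2t3 and Fam53b) and 3 in Het (Nol4l, Cbfa2t3 and Fam53b). Over all genes that fit called 1200 lower of 2423 in WT, against 1757 of 3420 with all libraries, and 189 lower of 367 in Het, against 89 of 175. The members' median log2 fold was then −0.189 in WT and −0.139 in Het. In a fit to the WT vehicle and WT lithium libraries alone, where the spread is not shared with quieter groups, 3 members were called, and Banp (limma adjusted p = 0.0887), Zhx2 (0.0628) and Ahdc1 (0.105) were not. That fit called 1313 of 17138 genes, 715 of them lower.

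Markers of non-neuronal cells moved with lithium in WT mice. Called lower were 7 of 8 microglial, 8 of 10 endothelial, 6 of 8 pericyte and smooth muscle, 6 of 7 meningeal fibroblast, 4 of 8 astrocyte and 3 of 6 oligodendrocyte precursor markers, while 0 of 10 excitatory neuron and 0 of 8 oligodendrocyte markers were called. Of the other lists, 1 of 8 inhibitory neuron markers was called higher, and none of 5 blood, 6 striatal and 8 olfactory bulb markers was called. The summed level of the microglial markers was 9086 to 10793 in WT vehicle and 6324 to 9427 in WT lithium, and that of the endothelial markers 7736 to 9835 and 5816 to 8132. For the pericyte markers it was 6929 to 8082 and 4348 to 7214, and for the meningeal markers 2084 to 4244 and 1373 to 3714. In Het mice 1 of 10 endothelial markers was called lower with lithium and none of the 8 microglial markers. The part of these cell types in the members' change was not tested. In bulk tissue, fewer cells of a type and less RNA per cell cannot be told apart.

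No member was called for genotype in the main fit, which does not show that genotype had no effect. The 95% confidence intervals in vehicle ran, for instance, from −0.08 to 0.28 for Cbfa2t3 and from −0.20 to 0.13 for Zhx2. In vehicle, 0 of 8 differed between Het and WT (0.59% of all genes called by limma), with log2 folds from −0.08 for Bcor to 0.10 for Cbfa2t3, and none reached an unadjusted p below 0.05. Under lithium, 0 of 8 differed (0.0281% of all genes called), and 3 had an unadjusted p below 0.05, each higher in Het: Cbfa2t3 at 0.28 (SE 0.0891), Banp at 0.19 (SE 0.0665) and Nol4l at 0.09 (SE 0.0338). Their limma adjusted p-values were 0.208, 0.268 and 0.314. edgeR also called none in either comparison. Without WT lithium female replicate 1, however, 2 members were called for genotype under lithium. The number of genes called in that comparison, 5 with all libraries, ranged from 0 to 81 when 1 library was left out.

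Sex likewise gave no called member over the vehicle and lithium libraries (0 of 8 by limma and by edgeR, 0.0842% of all genes called). Fam53b was nearest, at −0.16 for female minus male (SE 0.0489, limma adjusted p = 0.625). Nol4l and Banp also had an unadjusted limma p below 0.05 (0.0178 and 0.0273). The estimates were below 0 in all 8 members, with a median log2 fold of −0.0705, against −0.000526 over all tested genes. In WT mice the lithium fold of Nol4l was −0.33 in females (SE 0.0478) and −0.14 in males (SE 0.0478), and that of Cbfa2t3 was −0.68 (SE 0.126) and −0.27 (SE 0.126). The tests of these sex differences gave limma adjusted p = 0.0507 and 0.117, so 0 of 8 members were called where 9.64% of all genes were. That count of genes depended on single libraries, from 1 to 3276 genes when 1 library was left out, and without WT lithium female replicate 1 it held 3 members. After GC correction it held 60 genes and 1 member. In Het mice the lithium response differed by sex for 0 of 8 members and 0.0% of all genes by limma and by edgeR (416 genes at an unadjusted p below 0.05).

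The fluoxetine values, which chose the genes, are given as a description. The log2 fold in WT was −0.64 for Cbfa2t3 (SE 0.0891), −0.61 for Zhx2 (SE 0.0827), −0.60 for Fam53b (SE 0.0691) and −0.53 for Banp (SE 0.0665). Ahdc1 stood at −0.42 (SE 0.0779), Bcor at −0.41 (SE 0.0488), Gse1 at −0.40 (SE 0.0647) and Nol4l at −0.34 (SE 0.0338). Across all genes 4.08% were called lower and 4.35% higher with fluoxetine in WT. In Het the log2 folds were −0.94 for Cbfa2t3, −0.85 for Ahdc1, −0.78 for Fam53b, −0.70 for Gse1, −0.63 for Banp, −0.58 for Zhx2, −0.46 for Bcor and −0.37 for Nol4l, with the same standard errors. There 19.9% of all genes were called lower and 19.1% higher. The order of size was thus led by Cbfa2t3 in both genotypes, and Nol4l, the member with the clearest lithium response, had the smallest fluoxetine fold in both.

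Per library, Cbfa2t3 was at 697 to 867 (median 812) in WT fluoxetine and 573 to 791 (median 705) in Het fluoxetine. Fam53b was at 662 to 962 (median 750) and 593 to 849 (median 711), and Banp at 604 to 730 (median 661) and 567 to 700 (median 641). These ranges lay below all vehicle libraries of the same genotype. Ahdc1 was at 1282 to 2083 (median 1751) in WT fluoxetine and 1167 to 1415 (median 1333) in Het fluoxetine, and Gse1 at 1699 to 2292 (median 2114) and 1343 to 1937 (median 1643). Nol4l was at 1702 to 1986 (median 1888) and 1654 to 1968 (median 1795). The estimates for Het minus WT in fluoxetine were at or below 0 in all 8 members, with log2 differences of −0.38 for Ahdc1 (SE 0.0779), −0.32 for Gse1 (SE 0.0647), −0.21 for Cbfa2t3 (SE 0.0891), −0.12 for Bcor (SE 0.0488) and −0.13 to 0.0 for the others. Over all genes that comparison called 7042 of 17810, 3545 of them lower in Het. Bcor was at 738 to 1001 (median 914) and 634 to 1085 (median 823), and Zhx2 at 273 to 365 (median 328) and 262 to 354 (median 340). In WT, fluoxetine lay below vehicle with no overlap for 6 of 8 members (not Gse1 and Ahdc1), against 0.253% of all genes. In Het it did so for 7 of 8 (not Bcor), against 2.4% of all genes. Lithium did so for 1 of 8 in WT and for 0 of 8 in Het, where the share over all genes was 0.0225%.

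Most Het fluoxetine libraries belonged to the group low in pseudogenes. With a term for those libraries the Het fluoxetine folds were −0.41 for Gse1 (SE 0.113), −0.34 for Bcor (SE 0.0902), −0.72 for Ahdc1 (SE 0.147) and −0.82 for Cbfa2t3 (SE 0.168). Gse1 then stood close to its WT fold of −0.40. The term rests on Het fluoxetine male replicate 1 and WT vehicle female replicate 2, however. The first of these had the highest Gse1 count of Het fluoxetine, at 1937. After GC correction the folds in Het fluoxetine were −0.62 for Ahdc1, −0.53 for Gse1 and −0.27 for Nol4l. All 8 folds were below 0 in both of these fits. Over all genes the fit with the term called 49 of 17810 in Het fluoxetine, 26 of them lower, against 6952 without it. GC correction left 3912 of 17799. The pseudogenes were picked for being low in Het fluoxetine, so drug and library group cannot be told apart there. Endothelial markers also moved with fluoxetine, with 6 of 10 called lower in WT (median log2 fold −0.281) and 5 of 10 in Het (median −0.189). Their summed level was 7736 to 9835 in WT vehicle and 6452 to 10129.7 in WT fluoxetine, and 7553 to 11952 and 6868 to 8591 in the Het groups. Of the excitatory neuron markers, 0 of 10 were called in WT fluoxetine and 4 of 10 were lower in Het fluoxetine, where the summed level was 163389 to 253786 with vehicle and 147183 to 202517 with fluoxetine. The part of the library group and of these cell types in the fluoxetine values was not tested.

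**Figure D3:**
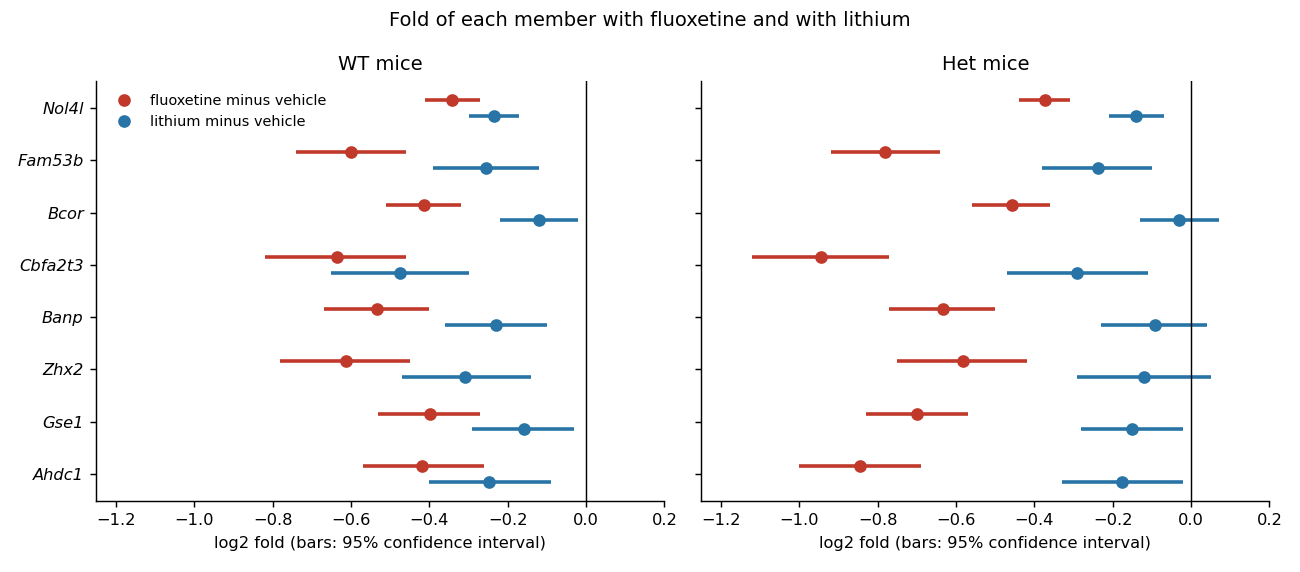
Log2 fold against vehicle (horizontal axis) of each member with fluoxetine (red) and lithium (blue), in WT mice (left) and Het mice (right). Points are model estimates averaged over the sexes and bars are 95% confidence intervals. All lithium points lie between the fluoxetine point and 0, from −0.47 for Cbfa2t3 in WT to −0.03 for Bcor in Het.

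Setting the drugs side by side with the sexes together, the mean of every member was highest in vehicle, lower in lithium and lowest in fluoxetine, in both genotypes. In WT females alone, Cbfa2t3 had a mean of 817 with lithium and 825 with fluoxetine, and Nol4l 1919 and 1908. The groups share their vehicle libraries and the fluoxetine step was chosen. Lithium minus fluoxetine was 0.11 for Nol4l (SE 0.0338), 0.16 for Cbfa2t3 (SE 0.0891) and 0.17 for Ahdc1 (SE 0.0779) in WT, the smallest gaps. It was 0.35 for Fam53b (SE 0.0691), the widest in WT. In Het the gap ran from 0.23 for Nol4l (SE 0.0338) to 0.67 for Ahdc1 (SE 0.0779). The lithium and fluoxetine libraries of WT overlapped for all 8 members. In Het the lithium and fluoxetine libraries overlapped for Fam53b and Bcor only. For the other members every Het lithium library lay above every Het fluoxetine library. The share of all genes with such a gap was not computed, and the fluoxetine libraries chose the members. The Het lithium and vehicle libraries overlapped for all 8 members.

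Of the 8 paralogs of the members, 2 were called with lithium in WT, 1 in each direction. Of the paralogs, Bcorl1, the BCOR-like corepressor, fell with lithium in WT from 775 to 893 in vehicle to 517 to 826 (log2 fold −0.25, SE 0.0571, limma adjusted p = 0.00142). Its log2 fold was −0.19 in Het lithium (limma adjusted p = 0.0826), and it fell with fluoxetine by 0.34 in WT and by 0.54 in Het on the log2 scale. Cbfa2t2, the ETO-family paralog of Cbfa2t3, went the other way, from 1419 to 1589.7 in WT vehicle to 1438 to 1764 in WT lithium (log2 fold 0.13, SE 0.0315, limma adjusted p = 0.00365). The groups of Cbfa2t2 overlapped. Runx1t1, the founding ETO gene, gave −0.11 with lithium in WT (limma adjusted p = 0.251). Fam53a (0.03), Fam53c (−0.09), Nol4 (−0.01), Zhx1 (−0.02) and Zhx3 (0.07) did not pass in WT lithium either, and none of the paralogs passed in Het lithium. With fluoxetine Fam53c fell in both genotypes (−0.12 in WT, limma adjusted p = 0.0274, and −0.25 in Het, limma adjusted p = 4.48e-07). Runx1t1 fell in WT fluoxetine (−0.27, limma adjusted p = 0.00688) and stood at 0.10 in Het (limma adjusted p = 0.268). In Het fluoxetine Cbfa2t2 (0.13), Nol4 (0.21) and Zhx1 (0.18) rose. After GC correction these folds were 0.12, 0.22 and 0.05, so most of the Zhx1 rise was lost. The directions of Bcorl1 and Cbfa2t2 were the same with TMM scaling and after GC correction.

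Across the listed partners and related complexes, 104 genes other than the members, 100 were tested. In WT lithium 17 of 100 were called lower and 10 higher, with a median log2 fold of −0.027, where 9.87% and 9.34% of all genes were called. After GC correction 15 were lower and 15 higher, with 8.94% and 12.3% over all genes. In Het lithium none was called, 0 lower and 0 higher. After GC correction 4 were lower and 0 higher there, with 1.16% and 1.87% over all genes. With fluoxetine 13 were lower and 4 higher in WT, and 31 lower and 18 higher in Het (18 and 4, and 19 and 11, after GC correction). Over all genes the fluoxetine shares were 4.08% lower and 4.35% higher in WT, and 19.9% and 19.1% in Het. After GC correction they were 5.87% and 5.91% in WT, and 10.2% and 11.8% in Het. The SIN3 complex, a deacetylase scaffold, had 3 of 17 called lower in WT lithium: Ing1, a histone-mark reader (−0.26, limma adjusted p = 3.11e-05), the scaffold Sin3a (−0.19, limma adjusted p = 0.00771) and Arid4a (−0.10, limma adjusted p = 0.043). Of the Groucho and Hairy genes, corepressors and their DNA-binding partners in Notch signalling, 5 of 11 were lower and 1 higher. Hey1 (−0.21, limma adjusted p = 0.00116) and Tle1 (−0.19, limma adjusted p = 0.00354) led the first and Tle4 (0.21, limma adjusted p = 0.0185) was the second.

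Around KDM1A, Rcor2 was lower in WT lithium (−0.25, limma adjusted p = 0.00176) and its paralog Rcor3 higher (0.21, limma adjusted p = 0.00815), while Kdm1a itself was at 0.01 (limma adjusted p = 0.808). In the Polycomb complex that BCOR belongs to, Bcorl1 was lower, the deubiquitinase Usp7 higher (0.09, limma adjusted p = 0.0382) and the other 8 listed genes not called. BEN-domain genes, the family of Banp, had 3 of 7 lower, Nacc2 (−0.26, limma adjusted p = 0.00313), Bend4 (−0.19, limma adjusted p = 0.00891) and Bend6 (−0.20, limma adjusted p = 0.0209), and Bend5 higher (0.31, limma adjusted p = 0.00484). NuRD, a remodelling and deacetylase complex, had the remodeller Chd3 lower (−0.22, limma adjusted p = 0.00233), Mbd3 lower and Gatad2b higher. AT-hook genes had 3 of 8 higher, Aff2 (0.26, limma adjusted p = 0.00682), Setbp1 (0.18, limma adjusted p = 0.0127) and Phf20 (0.08, limma adjusted p = 0.0272), and Akna lower (−0.24, limma adjusted p = 0.0398). None of 6 NCoR-SMRT genes, 8 CtBP genes or 6 ZHX and NF-Y genes was called in WT lithium.

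The members moved together over the libraries. Among the 28 pairs, the correlation over the 60 libraries was 0.714 to 0.929 (median 0.816), a description to which the drugs contribute in all pairs. Taken as deviations from the 12 group means, it was 0.057 to 0.818 (median 0.47), above 0 in all 28 pairs. The libraries share depth, GC trend and cell composition in these numbers. The genes most like the members' mean profile over the 60 libraries were Myh9, a non-muscle myosin (r = 0.907), Prag1 (0.893), Bcorl1 (0.891), Mtcl1 (0.891) and Dnajb5 (0.887). The middle 90% of 17791 genes lay between −0.474 and 0.508. The GC content of these 5 transcripts was 54.3% to 60.2%. After removal of the group means the likest were Flrt1 (0.796), Elfn2 (0.784), Myh9 (0.752), Samd4b (0.74) and Pde4a (0.711).

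The most opposite gene on both measures was Atp10d, a lipid-flippase gene annotated as a polymorphic pseudogene (r = −0.94, and −0.74 for deviations). Its count was 94.1 to 126 in WT vehicle, 110 to 192 in WT lithium and 143 to 214 in WT fluoxetine, and 98.6 to 121, 104 to 174 and 166 to 216 in Het vehicle, lithium and fluoxetine. With lithium its log2 fold was 0.40 in WT (SE 0.0848) and 0.25 in Het (SE 0.0848). Atp10d was picked for its opposition to the members over the same libraries, so these folds are a description and carry no test. The next most opposite were Zfp810 (−0.88) and Zc3h6 (−0.867) over the libraries, and Cwc22 (−0.704) and Arl4a (−0.69) in deviations. These transcripts had a GC content of 43.2% to 48.4%, below the median.

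**Figure D4:**
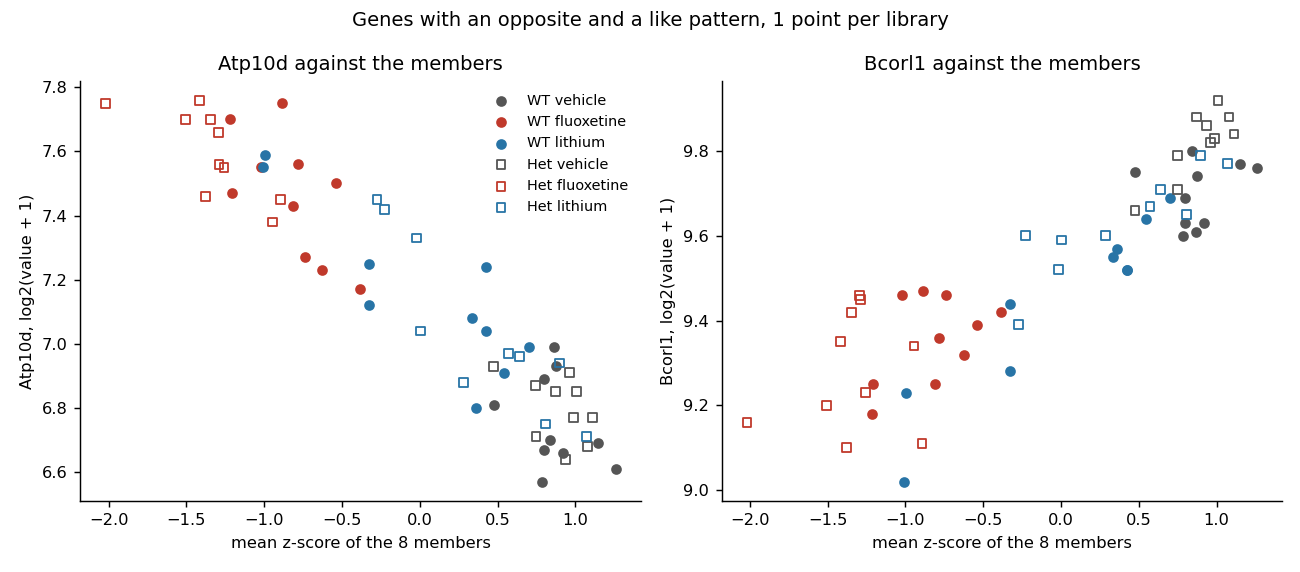
Log2(value + 1) of Atp10d (left) and Bcorl1 (right) on the vertical axis against the mean z-score of the 8 members on the horizontal axis. Each point is 1 of the 60 libraries, filled for WT and open for Het; Atp10d falls (r = −0.94) and Bcorl1 rises (r = 0.891) with the members, and lithium libraries spread between vehicle and fluoxetine.

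In WT mice most neighbours of the chromosome 8 members were not called with either drug, as was true of most genes. The span of these members, chr8:120228456-122699109, is 2.47 Mb long and holds 35 other tested genes. In WT fluoxetine 1 of the 35 was called lower (Mvd, −0.30) and 1 higher (Mthfsd, 0.11), with 4.08% and 4.35% over all genes. Their median log2 fold was 0.055, while Gse1, Banp and Cbfa2t3 stood at −0.40, −0.53 and −0.64. In WT lithium 5 of 35 were lower and none higher, median −0.066, with 9.87% and 9.34% over all genes. These were Cyba (−0.46, limma adjusted p = 5.06e-05), Mvd (−0.26, limma adjusted p = 0.00306), Irf8 (−0.27, limma adjusted p = 0.0208), Foxc2 (−0.50, limma adjusted p = 0.0279) and Fbxo31 (−0.18, limma adjusted p = 0.0446). After GC correction 3 were lower and 2 higher, with 8.94% and 12.3% over all genes. Irf8 and Cyba are known from microglia and other myeloid cells. In Het lithium none of the 35 was called, where 0.5% of all genes were lower and 0.483% higher. In Het fluoxetine 15 of the 35 were lower and none higher, against 19.9% and 19.1% over all genes. These became 5 lower and 2 higher after GC correction, against 10.2% and 11.8% over all genes.

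**Figure D5:**
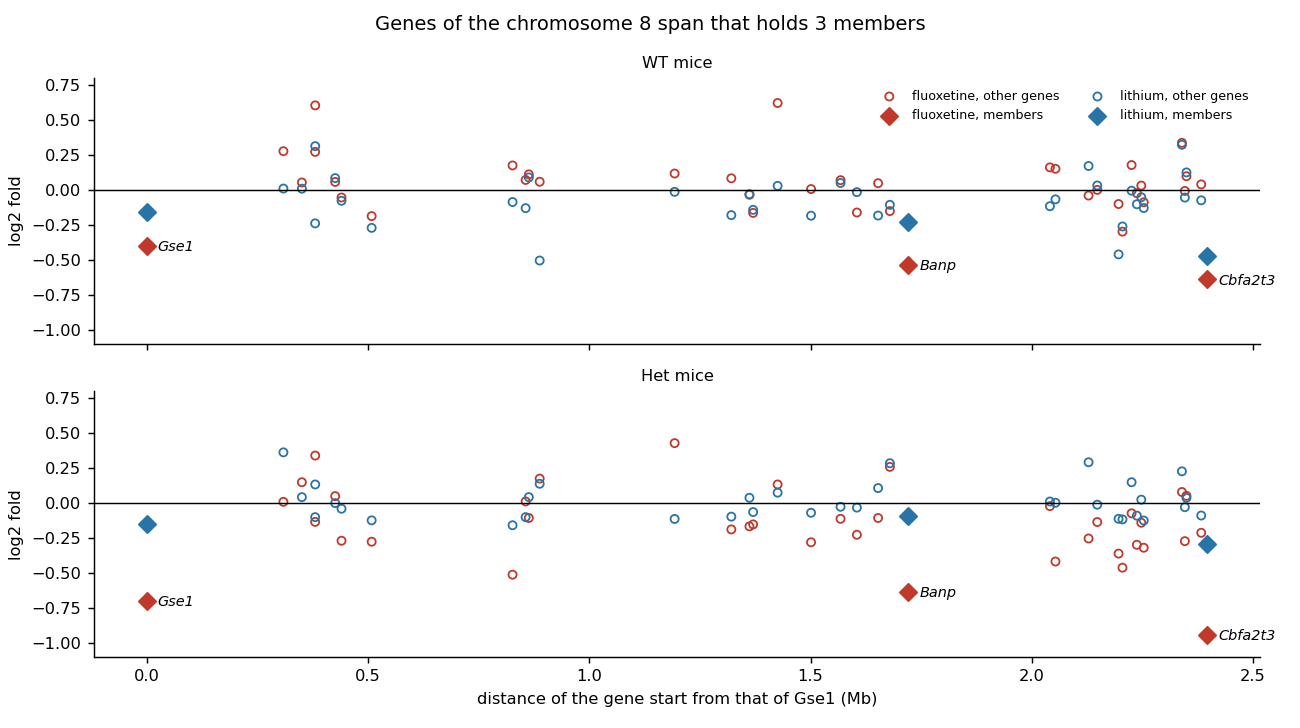
Log2 fold against vehicle (vertical axis) of the tested genes in the span, by distance of the gene start from that of Gse1 (horizontal axis, Mb), in WT (top) and Het (bottom). Diamonds are members and circles the 35 other genes, red for fluoxetine and blue for lithium; in WT fluoxetine the members lie at −0.40 to −0.64 among neighbours whose median is 0.055.

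Genes whose promoter window holds the core of the element bound by the Banp protein were described as a group, since Banp itself was lower. The core searched was CTCGCGAG, which reads the same on both strands, and 0.919% of all windows hold it. None of the 13 member windows did. Of 237 tested genes with the core, 16.9% were called higher and 4.22% lower in WT lithium, 8.44% and 3.38% in WT fluoxetine, and 34.2% and 13.9% in Het fluoxetine. In Het lithium 0.844% were higher and 0.422% lower. The median log2 folds were small, at 0.035, 0.011, 0.072 and 0.001 in the same order. These transcripts had a median GC content of 47.0%, below that of the tested genes. After GC correction the WT lithium shares were 21.1% higher and 5.49% lower, with 12.3% and 8.94% over all genes. In Het fluoxetine they were 19.8% and 11.4%, with 11.8% and 10.2% over all genes. In Het lithium they were 3.38% and 0.422%, with 1.87% and 1.16% over all genes, and in WT fluoxetine 13.5% and 5.91%, with 5.91% and 5.87%. The part of Banp in these shares was not tested.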

How the data were processed

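Each deposited value is a normalised signal: reads per gene over a size factor, 1 for each library. Dividing a column by its smallest step gave whole reads, within 0.001, for 100% of the values above 0. The values are called normalised read counts here. The kit was a stranded one for mRNA, per the labels. The submitters' processing notes list DESeq2 1.19.11, GRCm38, R 3.6.0 and Salmon 0.11.2 without roles or order. Whether reads were counted by strand is not given there, so reads of genes that overlap on opposite strands cannot be told apart. Depth was 23901635 to 37769417 recovered reads per library. Of 18088 identifiers, 18077 had a symbol in GENCODE M21.

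The main test was limma 3.58.1 (R 4.3.3) fitted to log2(value + 1) with its trend and robust options, a model of 12 group means and 48 residual degrees of freedom. It covered the 17810 genes that reached 10 in 5 or more libraries, with Benjamini-Hochberg adjustment within each contrast and the sexes weighted equally. Folds on this scale understate the change of low genes. The models were tested on simulated data. Alternatives were TMM scaling, no filter, a pseudocount of 5, groups compared alone, a replicate block, edgeR 4.0.16 quasi-likelihood on the recovered reads, GC correction (loess, span 0.3), omission of the 3 libraries with the largest residuals, a term for 10 libraries low in 16 pseudogenes, and omission of each library in turn. A further alternative was added after the data and its calls had been seen: the 3 largest residuals taken over genes with a mean of at least 100.

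The members and the gene lists were chosen with earlier results of these data known. Genes named are the 8 members, their paralogs, at most 4 genes per list in each direction among those called with lithium, the genes most and least correlated with the members, and those in the chromosome 8 span. Promoter sequences are from RefSeq (GRCm38.p6).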

Additional observations from a re-analysis of the deposited data

Results flagged for a closer look

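Among 96 groups of 5 libraries (8 members in 12 groups), 5 held a library whose distance from the nearest of the others was large for the group's range. Chance flags about 1 in 20 groups. Nol4l was at 2396 in Het lithium female replicate 1, with the others at 2007 to 2083, the library without which 3 members were called in Het lithium. Nol4l was at 1789 in Het fluoxetine female replicate 4, with the others at 1933 to 1968, and at 1986 in WT fluoxetine female replicate 3, with the others at 1873 to 1904. Zhx2 was at 288 in WT lithium male replicate 5, with the others at 435 to 473, the library with the steepest GC trend of the study (−0.756). Gse1 was at 2076 in Het lithium male replicate 4, with the others at 2468 to 2624.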

How the results depend on the processing

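The 6 members called in WT lithium became 3 with the groups compared alone and 3 without the 3 libraries with the largest residuals over all tested genes (4 when those were taken over genes with a mean of at least 100, a set that held WT vehicle female replicate 2 in place of Het vehicle male replicate 5 and was chosen after the first result was seen). GC correction gave 4 (genes called lower 1592, against 1757), and the term for libraries low in pseudogenes 8 (genes called lower 2039). The single member called in Het lithium became 3 and 2 without these sets of libraries and 2 with the replicate block and GC correction together. The sex difference in the WT lithium response held 1 member with TMM scaling, the replicate block, GC correction, or the last pair together, and 0 otherwise. Leaving out 1 library gave 5 to 7 members in WT lithium, 0 to 3 in Het lithium, 0 to 2 for genotype under lithium and 0 to 3 for sex in WT lithium, the highest of the last 2 without WT lithium female replicate 1, and that of Het lithium without Het lithium female replicate 1. Genotype in vehicle, the genotype difference in the lithium response, sex, and the sex difference in the Het lithium response held 0 members in each fit run. No fold of a member with lithium or fluoxetine changed sign in any fit run. Over all genes, lithium called 3420 in WT (1313 with the groups alone, 2423 and 3312 without the sets of 3, 2650 to 4296 without 1 library) and 175 in Het (539 after GC correction, 367 and 496 without the sets of 3, 54 to 269 without 1 library). In WT, GC correction turned 1663 higher and 1757 lower into 2190 and 1592. Same-numbered libraries did not deviate together on average (mean correlation 5.38e-05, 8 of 60 libraries closest to their own number). A mean over all groups cannot show pairing within only some of them, which was not tested. The replicate block left 6 members in WT lithium and 1 in Het lithium. Depth limits Zhx2 most, with as few as 232 reads in a library.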
